A study of Mus musculus with 8 samples.

Results

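The genes described here encode initiation and elongation factors of cytoplasmic translation, and also some kinases, methyltransferases and binding proteins that act on them. All are called translation factor genes below. They were taken as every gene on the array whose single annotated symbol begins with Eif or Eef. This gave 52 of 13661 named genes, carried by 80 of 33600 spots. The tissue was the whole heart, from C57Bl/6 mice of 8 to 10 weeks. The 4 infarcted hearts had a permanent ligation of the descending left coronary artery, and the 4 sham control hearts had the same operation with the suture left untied. The labels name no genetic change in either group, and neither sex nor the time since surgery is known here. Every heart had 1 array of spotted long oligonucleotides, on which red-labelled heart RNA met a green-labelled universal mouse reference that itself contains heart RNA.

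Translation begins when the small ribosomal subunit, carrying the initiator tRNA brought by eIF2, is recruited to the capped end of an mRNA by the eIF4 factors and scans to the start codon with the help of eIF1, eIF1A and eIF3. The guanine nucleotide exchange factor eIF2B recharges eIF2, and kinases that phosphorylate eIF2 under stress hold this step back. The elongation factors eEF1 and eEF2 then deliver each aminoacyl-tRNA and move the ribosome along. In the heart, protein synthesis is known to increase during hypertrophic growth.

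A level below is the log2 signal of a spot relative to the median spot of its block on the same array, so 0 is the median, and genes with several spots were averaged. The deposited values behave as the signal of 1 channel, and the heart channel is assumed, since the files do not settle which of the 2 it is. Levels of different genes come from different oligonucleotides and are not ranked against each other. Fold changes are infarcted minus sham control on the log2 scale with the standard error (SE) of a limma fit to all 18044 testable features. An adjusted p (Benjamini-Hochberg over all of them) under 0.05 counts as a change. The number of arrays limits the precision.

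Values were present for 21916 to 23655 spots on the infarcted arrays and for 19704 to 24819 on the sham arrays. The sham arrays reached further up, with a 99th percentile of 5.05 to 5.24 on infarcted arrays and 5.65 to 6.31 on sham arrays. Sham control replicate 4 had the fewest values, and without it the number of changed features was 615 in place of 99. Of 15 heart muscle markers listed, 14 were on the array and 7 could be tested, with 0 changed. Of these 7, 4 were positive and 3 negative, with a median of 0.015. Mybpc3, a protein of the heart muscle thick filament, had the smallest p at -1.11 ± 0.38 (SE, adjusted p = 0.281). After quantile normalization, which gives every array the same distribution of signals, Mybpc3 stood at -0.31. Because the reference contains heart RNA, these markers cannot show which channel the values hold.

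No tested transcript of a translation factor was called different between infarcted and sham hearts. Named spots covered 0 of 2 listed eIF5A genes, 2 of 4 eIF2 subunits and 11 of 15 eIF3 subunits. The result does not extend to factors without a named spot. Of the 52 genes 49 had enough values for the test, and 0 of 49 passed, where 0.549% of all features did (limma), 0.0554% as higher and 0.493% as lower in infarcted hearts. At an unadjusted p under 0.05 there was 1 gene, Eif4a1, against 12.3% of all features. The median fold change of the 49 genes was -0.04, against -0.08 over all features, and 28 were negative and 21 positive, where 57.5% of all features were negative. The groups did not overlap for 4 of the 49, namely Eef2, Eif3b and Eif6 with lower infarcted levels and Eif4enif1 with higher ones, and 8.89% of all features had such groups, 6.27% lower and 2.62% higher.

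The precision of the fold changes differed by gene. Fold changes ran from -0.68 for Eif4a1 to 1.00 for Eif1b, with an SE between 0.19 and 0.90 and a median SE of 0.26. With arrays centred on the median, the 95% interval of 40 of the 49 genes lay within -1 and 1, that is, within 2-fold either way. The 9 genes with a wider reach were Eef1a2, Eef1akmt2, Eef1b2, Eif1b, Eif2ak4, Eif3a, Eif3l, Eif4a1 and Eif6. These intervals are not adjusted for the number of genes, and they do not cover the choice of scaling. They also do not give the size of change that would have been called. Outside the family, Hba-a1 at -1.78 and Gpnmb at 1.58 went uncalled (limma adjusted p = 0.0586 and 0.06). Eef2 stood at -0.38 with arrays centred on the median and at 0.55 ± 0.20 (SE) after quantile normalization. In whole hearts, fewer cells of a type and less RNA per cell cannot be told apart.

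**Figure D1:**
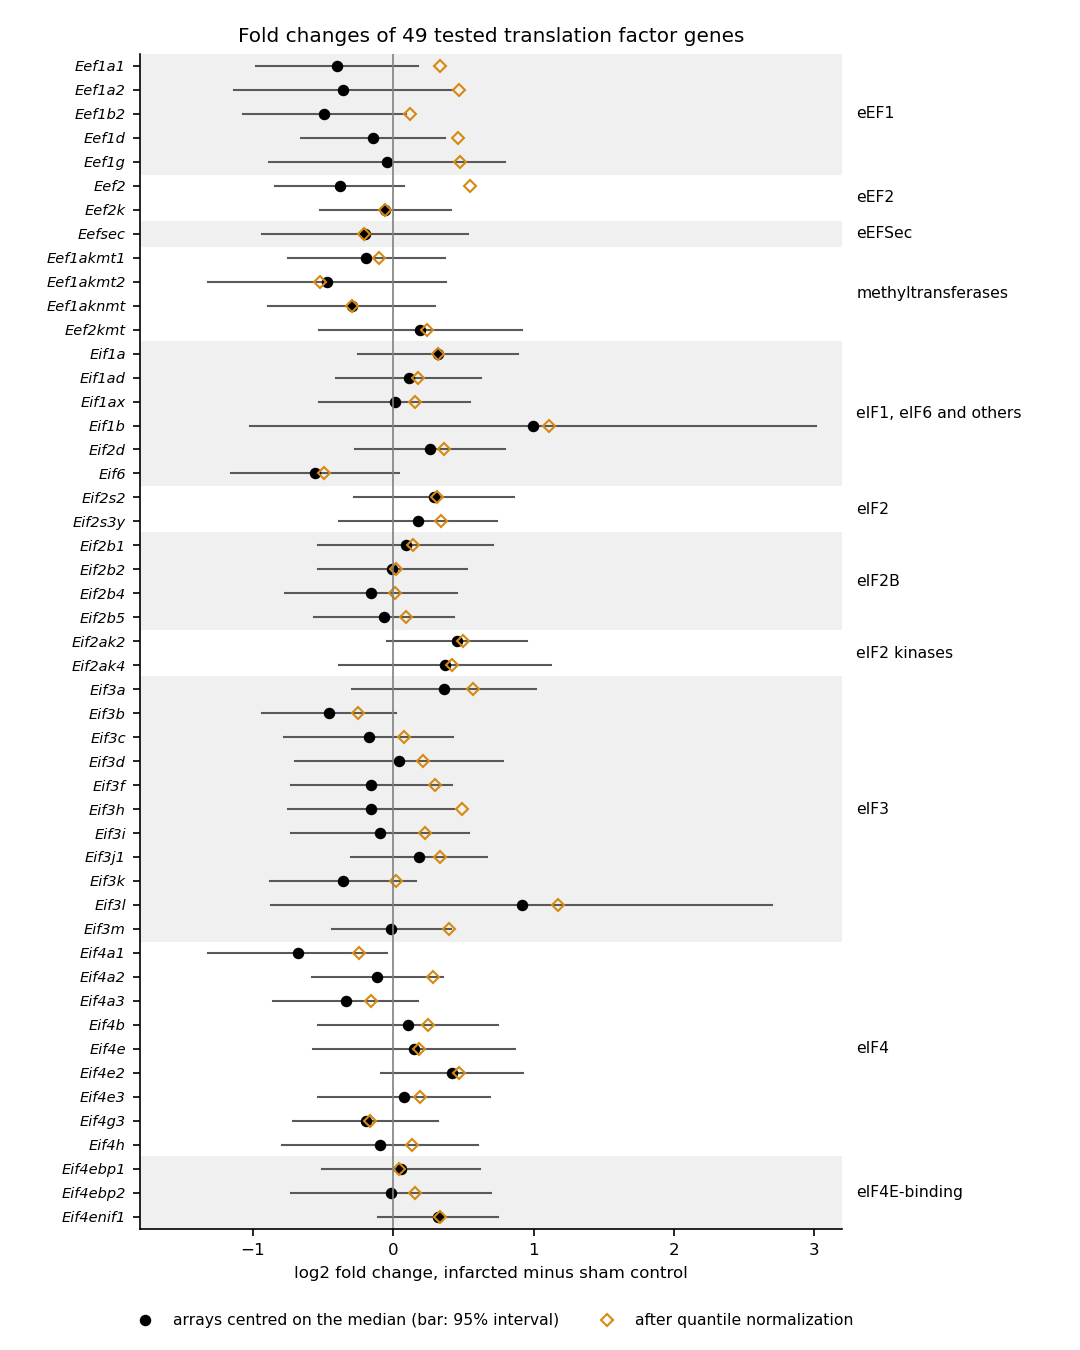
Log2 fold changes (infarcted minus sham control) of the 49 tested genes, grouped by role from top to bottom. Filled points are fold changes with arrays centred on the median and bars their 95% intervals, and open diamonds are the values after quantile normalization, which lie to the right of the points for the eEF1 subunits and Eef2.

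All 5 tested eEF1 subunits and Eef2 had negative fold changes when arrays were centred on the median, all of which turned positive after quantile normalization, and 0 of them passed under either scaling. Eef2, the GTPase that translocates the ribosome, had levels of 5.48, 5.78, 5.78 and 5.76 on infarcted arrays and 5.92, 6.27, 6.21 and 5.93 on sham arrays. Every infarcted heart lay below every sham heart. The fold change was -0.38 ± 0.21 (SE, adjusted p = 0.501).

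Eef1a1, the ubiquitous form of the factor that delivers aminoacyl-tRNA, had levels of 4.49, 4.25, 4.51 and 4.94 on infarcted arrays and 4.47, 5.03, 5.35 and 4.94 on sham arrays. Sham replicate 1 lay among the infarcted hearts and infarcted replicate 4 among the sham hearts, and the fold change was -0.40 ± 0.26 (SE, adjusted p = 0.593). Eef1a2 is the form that replaces it in adult muscle and neurons. Its levels were 6.04, 5.68, 5.02 and 5.27 on infarcted arrays and 6.18, 6.34, 5.94 and 4.97 on sham arrays. Sham replicate 4 was the lowest of all 8 arrays, and the other 3 sham hearts lay above 3 of the 4 infarcted hearts. The fold change was -0.36 ± 0.35 (SE, adjusted p = 0.747), and -0.65 without sham replicate 4. The recovered signals show that the brightest spot of the family, Eef1a2 on sham replicate 1 at 46897, stayed below the highest signal on any array, 65466. Cross-hybridisation between the paired genes Eef1a1 and Eef1a2 was not tested.

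The exchange factor of eEF1A is built from eEF1B subunits. Eef1b2 had levels of 3.99, 3.73, 4.32 and 4.23 on infarcted arrays and 4.64, 4.94, 4.64 and 4.002 on sham arrays. All infarcted hearts lay below 3 of the sham hearts, and the fold change was -0.49 ± 0.26 (SE, adjusted p = 0.496). Eef1d and Eef1g, its partner subunits, stood at -0.15 ± 0.23 and -0.04 ± 0.38 (SE, adjusted p = 0.855 and 0.978). Eef1g varied widely among sham hearts, between 3.36 and 5.05, and less among infarcted hearts, between 3.55 and 4.21.

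Eef1e1, a scaffold subunit of the multi-tRNA synthetase complex, could not be tested. It had no value on any infarcted array, against levels of 0.98, 2.39, 1.44 and 0.83 on the sham arrays, where its recovered signals were 780, 2088, 1530 and 1122. Among all 29082 features, 21 had values on 4 sham arrays and none on infarcted arrays, and 23 the opposite. A missing value shows no level, so no fold is given. Eif2ak1 and Eif4g2 had no value on any array.

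No modifier of the elongation factors passed. Eef2k, the kinase that inactivates eEF2, had levels of 0.24, -0.02, 0.11 and -0.26 on infarcted arrays and 0.26, 0.04, 0.00 and -0.01 on sham arrays. The groups overlapped, with infarcted replicate 4 the lowest array, and the fold change was -0.05 with a 95% interval of -0.52 to 0.41 (adjusted p = 0.946). The selenocysteine elongation factor Eefsec stood at -0.20 ± 0.33 (SE, adjusted p = 0.86). Of 4 methyltransferases of elongation factors Eef1akmt1, Eef1aknmt and Eef1akmt2 were negative and Eef2kmt was positive at 0.19, with a median of -0.24. The lowest was Eef1akmt2 at -0.47 ± 0.38 (adjusted p = 0.683), with -1.81 in the fourth infarcted heart and -0.31 to -0.08 in the remaining 3, against -0.26 to 0.24 in sham hearts. Without infarcted replicate 4 its fold change was -0.06.

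**Figure D2:**
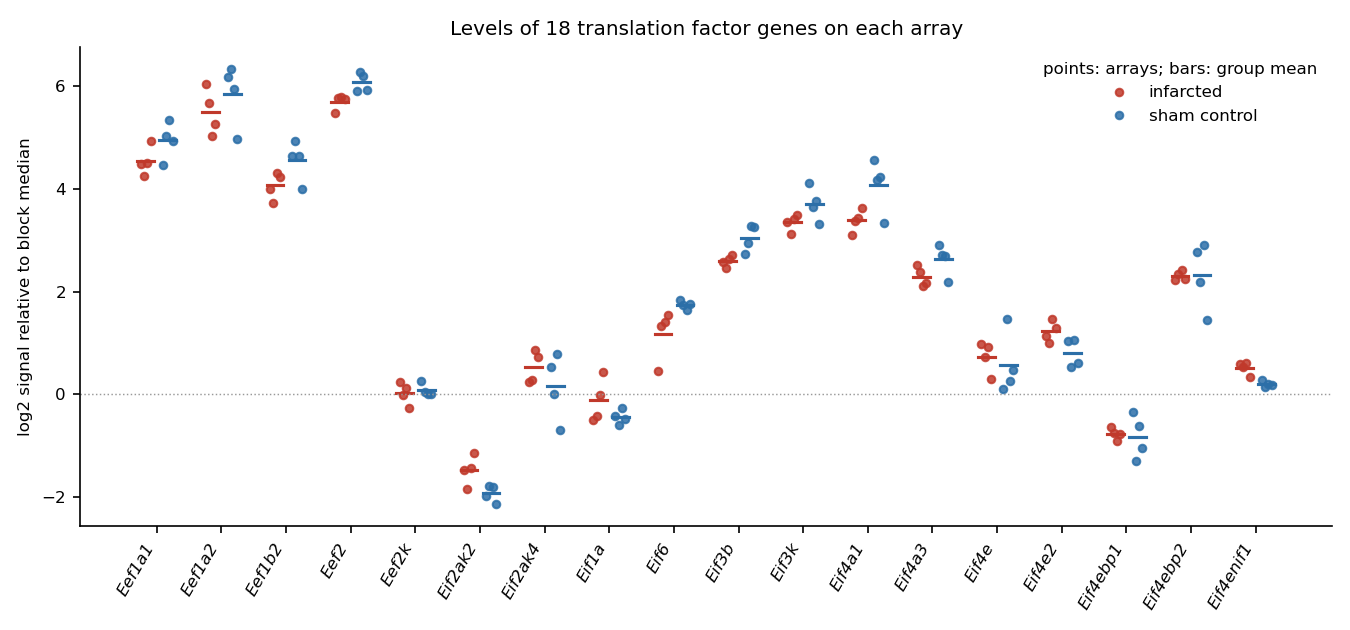
Levels (log2 signal relative to the block median) of 18 genes on each array, infarcted left of sham control, with bars at the group means. Eef2, Eif3b and Eif6 have all infarcted points below all sham points, Eif4enif1 has them above, and the other groups overlap.

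The direction of the tested eEF1 subunits and Eef2 depended on how the arrays were scaled. After quantile normalization, which gives every array the same distribution of signals, Eef2 had levels of 5.99, 6.21, 6.35 and 6.12 on infarcted arrays and 5.52, 5.52, 5.66 and 5.80 on sham arrays. Every infarcted heart then lay above every sham heart, the reverse of the order under median centring, and the fold change was 0.55 (adjusted p = 0.407). After quantile normalization 2 of the 49 genes, Eef2 and Eif4enif1, had all infarcted hearts above all sham hearts (3.56% of all features), and 0 had them below (3.59%). Eef1a1, Eef1a2 and Eef1b2 stood at 0.33, 0.47 and 0.12 after it, and Eef1d and Eef1g at 0.46 and 0.48, so all 5 tested eEF1 subunits changed sign. None of them passed under either scaling. Under scale normalization Eef2, Eef1a1, Eef1a2, Eef1b2 and Eef1d stayed negative, at -0.25, -0.29, -0.20, -0.37 and -0.04, and Eef1g stood at 0.08. With spot position removed Eef2 and the tested eEF1 subunits were all negative.

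With arrays centred on the median, fold changes over all features were more negative at high signal levels. Among all features with a level of 4 to 5 the median fold change was -0.62, and over 5 it was -0.90, against -0.03 for features from 0 to 2. The 13 translation factor genes with a mean level over 3 were all negative under median centring, and 12 of them were positive after quantile normalization. Set beside features of like level, the 5 genes from 4 to 5 had a median of -0.16 and the 2 genes over 5 one of -0.37. After quantile normalization these medians were 0.46 and 0.51, where all features had 0.02 and -0.07. Loess against the mean array gave 0.44 and 0.61, where all features had 0.0096 and -0.0004. For the whole family the median was 0.21 after quantile normalization, where all features had 0.0021, and 39 of 49 genes were positive. These are descriptions, and the part of signal level in each fold change was not tested.

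**Figure D3:**
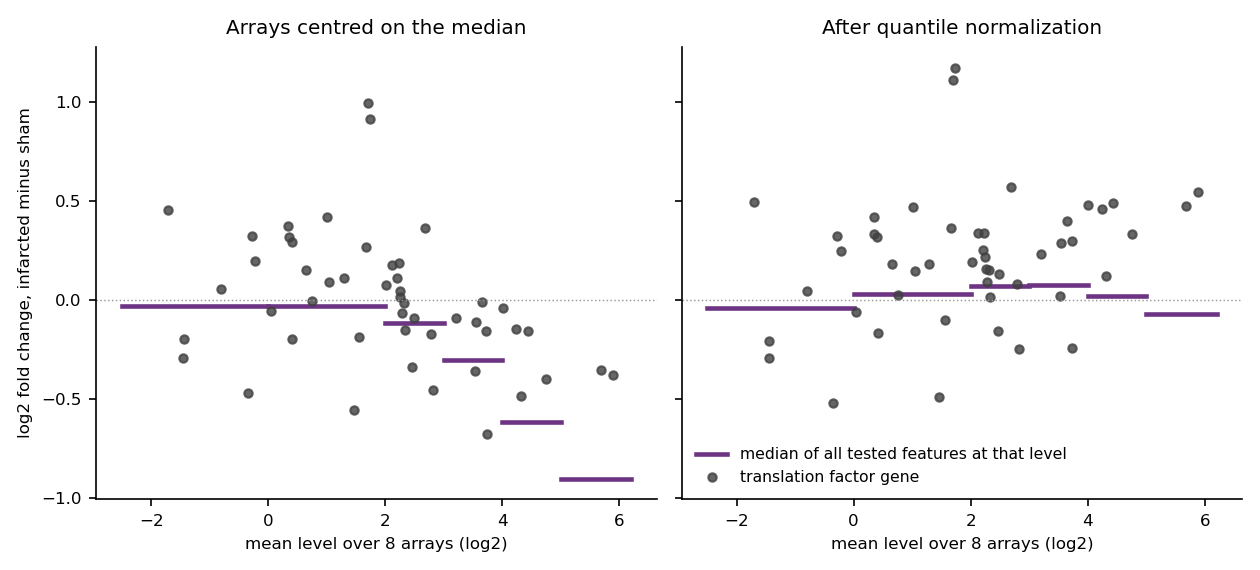
Log2 fold change against mean level for the 49 translation factor genes (points), with the median fold change of all tested features in each level range (lines). With arrays centred on the median the 13 genes over a level of 3 lie below 0, mostly above the falling line; after quantile normalization 12 of them lie above 0.

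Of 6 tested factors of the eIF1, eIF2D and eIF6 group, 5 were positive and 1, Eif6, was negative, and 0 passed. Eif6 keeps the large ribosomal subunit from joining too early. It had levels of 0.46, 1.32, 1.40 and 1.54 on infarcted arrays and 1.83, 1.73, 1.64 and 1.75 on sham arrays. All infarcted hearts lay below all sham hearts, with infarcted replicate 1 far down. The fold change was -0.56 ± 0.27 (SE, adjusted p = 0.449), and -0.32 without that array.

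Eif1a, which helps the scanning subunit find the start codon, had levels of -0.50, -0.43, -0.01 and 0.44 on infarcted arrays and -0.43, -0.60, -0.27 and -0.48 on sham arrays. Only 2 infarcted hearts lay above the sham range, and the fold change was 0.32 ± 0.26 (SE, adjusted p = 0.679). Its relatives Eif1ax and Eif1ad stood at 0.01 and 0.11, and Eif2d at 0.27. Eif1b had the highest fold change of the family, 1.00 ± 0.90 (SE, adjusted p = 0.719), and it rested on 1 array. Its level was -2.12 on sham replicate 1, against 1.62 to 2.64 on infarcted arrays and 2.03 to 2.57 on the other sham arrays, and without that array the fold change was -0.11. Eif1b was singled out after its values were seen.

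No gene of eIF2 or its exchange factor passed. Eif2s2, the beta subunit of eIF2, stood at 0.29 with a 95% interval of -0.28 to 0.86 (adjusted p = 0.711). Eif2s3y, the Y-linked copy of the gamma subunit, was measured on every array, at 1.92 to 2.48 in infarcted hearts and 1.62 to 2.41 in sham hearts, with a fold change of 0.18 ± 0.25 (SE, adjusted p = 0.837). The 4 measured eIF2B subunits Eif2b1, Eif2b2, Eif2b4 and Eif2b5 had fold changes of 0.09, -0.01, -0.15 and -0.07. The SE of these 4 lay between 0.22 and 0.28.

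Both tested eIF2 kinases were positive without passing. Eif2ak2 encodes PKR, which is activated by double-stranded RNA and is induced by interferon. It had levels of -1.47, -1.84, -1.45 and -1.15 on infarcted arrays and -1.996, -1.78, -1.81 and -2.15 on sham arrays. In 3 infarcted hearts it lay above all sham hearts, at signals under the block median throughout, and the fold change was 0.46 ± 0.22 (SE, adjusted p = 0.461). Eif2ak4, the amino acid sensor GCN2, had levels of 0.25, 0.27, 0.87 and 0.73 on infarcted arrays and 0.54, 0.01, 0.78 and -0.70 on sham arrays. The groups overlapped, and the fold change was 0.37 ± 0.34 (SE, adjusted p = 0.72), or 0.09 without sham replicate 4.

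The subunits of eIF3, the largest initiation factor, had a median of -0.09, with 7 of 11 negative and 4 positive. After quantile normalization 10 of the 11 were positive and the median was 0.30. Eif3b, a scaffold subunit of the complex, had levels of 2.57, 2.47, 2.63 and 2.71 on infarcted arrays and 2.74, 2.94, 3.27 and 3.25 on sham arrays. The groups did not overlap, by a margin smaller than the spread within the sham group, and the fold change was -0.46 ± 0.21 (SE, adjusted p = 0.428). It remained negative after quantile normalization at -0.25.

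Eif3k, a small peripheral subunit with 2 spots, had levels of 3.36, 3.13, 3.41 and 3.49 on infarcted arrays and 4.12, 3.64, 3.76 and 3.31 on sham arrays. Its groups overlapped at sham replicate 4, and the fold change was -0.36 ± 0.23 (SE, adjusted p = 0.596), with both spots negative at -0.30 and -0.42. Eif3m had the smallest SE of the family, with levels of 3.51 to 3.79 on infarcted arrays and 3.58 to 3.71 on sham arrays. Its fold change was -0.01 with a 95% interval of -0.44 to 0.41 under median centring, and 0.40 after quantile normalization. Eif3l stood at 0.92 ± 0.80 (SE, adjusted p = 0.709) because of 1 array. It had -1.67 on sham replicate 4, against 1.88 to 2.46 on infarcted arrays and 2.06 to 2.59 on the other sham arrays. Without that array the fold change was -0.07, and this gene too was chosen after its values were seen. Eif3a stood at 0.36, Eif3j1 at 0.19 and Eif3d at 0.04. Eif3c, Eif3h, Eif3f and Eif3i stood at -0.18, -0.16, -0.16 and -0.09.

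Among the cap-binding and helicase factors of the eIF4 group 5 of 9 were negative and 4 positive. Eif4a1, the RNA helicase that unwinds leaders ahead of the scanning ribosome, had levels of 3.11, 3.38, 3.44 and 3.64 on infarcted arrays and 4.56, 4.17, 4.23 and 3.33 on sham arrays. The 4 infarcted hearts lay below 3 sham hearts, while sham replicate 4 lay among the infarcted ones. The fold change was -0.68 ± 0.29 (SE, adjusted p = 0.372), the lowest of the family. Without sham replicate 4 it was -0.93 (adjusted p = 0.0717), and after quantile normalization -0.24. Eif4a3, a helicase of the exon junction complex, had levels of 2.52, 2.38, 2.11 and 2.16 on infarcted arrays and 2.91, 2.72, 2.69 and 2.19 on sham arrays. Here too sham replicate 4 was the sham array within the infarcted range, and the fold change was -0.34 ± 0.23 (SE, adjusted p = 0.621).

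Eif4e, the cap-binding protein, had levels of 0.97, 0.71, 0.92 and 0.29 on infarcted arrays and 0.11, 1.46, 0.26 and 0.47 on sham arrays. The sham range enclosed the infarcted one, and the fold change was 0.15 ± 0.32 (SE, adjusted p = 0.897). Eif4e2, a cap-binding relative known to repress translation, had levels of 1.13, 1.00, 1.46 and 1.30 on infarcted arrays and 1.03, 0.53, 1.05 and 0.60 on sham arrays. In 3 infarcted hearts it lay above all sham hearts, and the fold change was 0.42 ± 0.23 (SE, adjusted p = 0.502). Of its 3 spots 2 had values, at 0.19 and 0.65. Eif4b stood at 0.11, Eif4e3 at 0.08, Eif4h at -0.09, the scaffold Eif4g3 at -0.20 and the helicase Eif4a2 at -0.11.

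Of 3 proteins that bind eIF4E and block or relocate it, 2 were positive and 1 negative, and 0 passed. Eif4ebp1, an mTOR target that sequesters eIF4E, had levels of -0.64, -0.76, -0.92 and -0.78 on infarcted arrays and -0.35, -1.31, -0.62 and -1.05 on sham arrays. The infarcted hearts lay inside the sham range, and the fold change was 0.06 with a 95% interval of -0.51 to 0.62 (adjusted p = 0.956). Eif4ebp2 had levels of 2.22, 2.33, 2.41 and 2.25 on infarcted arrays and 2.77, 2.18, 2.90 and 1.45 on sham arrays. The infarcted hearts again lay inside the sham range, with a fold change of -0.02 and an interval of -0.73 to 0.69 (adjusted p = 0.99).

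Eif4enif1 encodes the transporter that carries eIF4E into the nucleus and to processing bodies. It had levels of 0.58, 0.54, 0.61 and 0.33 on infarcted arrays and 0.27, 0.14, 0.19 and 0.18 on sham arrays. All infarcted hearts lay above all sham hearts under both scalings, and the fold change was 0.32 ± 0.19 (SE, adjusted p = 0.558). Its 2 spots gave 0.49 and 0.14, so most of the difference came from 1 of them.

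Eif4a2, the second helicase isoform, was spotted 17 times and so shows how far spots of 1 gene differ on these arrays. The average over the spots was 3.46, 3.44, 3.61 and 3.42 on infarcted arrays and 3.68, 3.91, 3.39 and 3.41 on sham arrays, a fold change of -0.11 ± 0.21 (SE, adjusted p = 0.882). Within an array the spots had an SD of 0.36 to 0.78 on infarcted arrays and 0.43 to 0.67 on sham arrays, wider than the difference between groups. The sign went with the place on the array. In block 27 all 4 spots were positive with a mean of 0.42, in block 32 all 4 were negative with a mean of -0.53, in block 28 it was 1 of 4 positive with a mean of -0.35, and in block 31 it was 3 of 4 positive with a mean of 0.02. The single spot of block 35 stood at -0.13.

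All spots of those blocks at a level of 3 to 5, those of Eif4a2 included, had a negative median in each block. It was -0.51 in block 27, -0.57 in block 28, -0.38 in block 31 and -0.56 in block 32. Positive spots were 7 of 39 in block 27, 5 of 46 in block 28, 6 of 25 in block 31 and 1 of 42 in block 32. Of these positive spots 4, 1, 3 and 0 were spots of Eif4a2 itself, so the counts are not independent of it. A cause of the difference between blocks was not tested. Whether the 17 spots share an oligonucleotide is not known here. The 42 genes of the family with 1 spot have no such check. Of the 10 genes with several spots, 5 had spots of opposite sign, namely Eif4a2, Eif2s3y, Eif3c, Eif4g3 and Eif4h. Eif4a2 was described at this length because of its number of spots, after its values were seen.

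**Figure D4:**
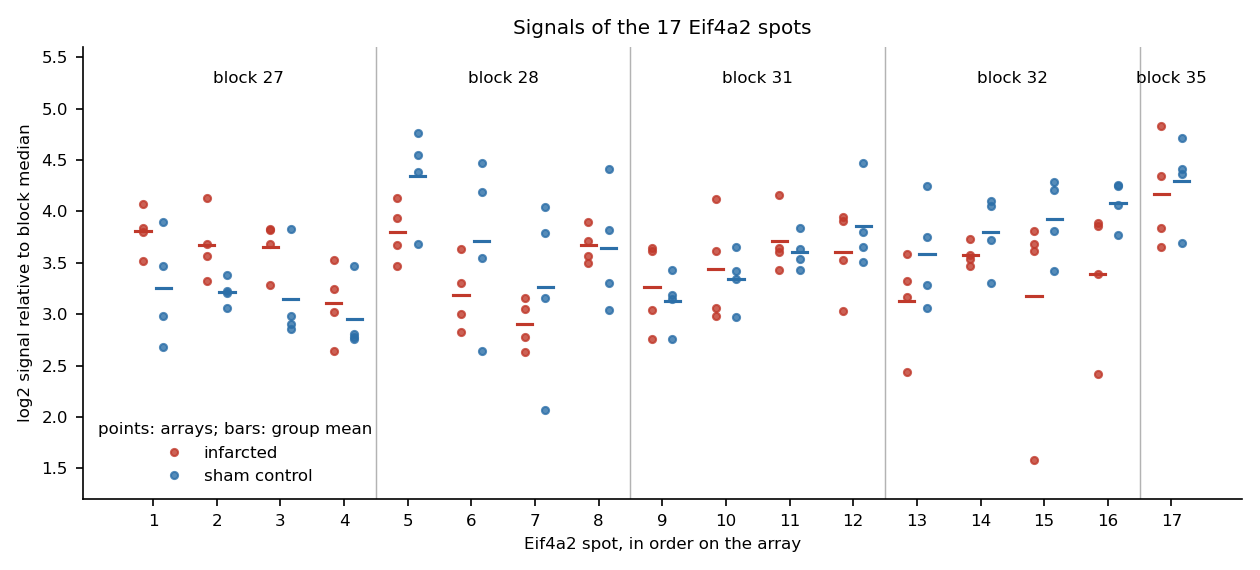
Levels (log2 signal relative to the block median) of the 17 Eif4a2 spots in their order on the array, with infarcted points left of sham control points, bars at the group means and lines between blocks. The infarcted means lie above the sham means for all spots of block 27 and below them for all spots of block 32.

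Genes that work with the family, taken from lists of known function, gave no call either, where 0.549% of all features were called. At that share lists this short would seldom hold a call. Of 24 regulators of the mTOR pathway and of poly(A)-binding protein, 20 were tested, 12 positive and 8 negative, with a median of 0.08 and 0 changed. The smallest p of that list was that of Paip1, which links poly(A)-binding protein to eIF4A, at 1.05 ± 0.24 (SE, adjusted p = 0.104). Its mean level was -0.62 in infarcted and -1.66 in sham hearts, and the groups did not overlap, as for 8.89% of all features. Paip2, which competes with Paip1 for poly(A)-binding protein, stood at 0.52 ± 0.20 and Ddit4, an mTOR inhibitor induced by hypoxia and stress, at 0.81 ± 0.41 (SE, adjusted p = 0.337 and 0.466). Pdcd4, an inhibitor of eIF4A, stood at -1.16 ± 0.41 (SE, adjusted p = 0.285). Genes of these lists other than the smallest p of each were picked after their values were seen.

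Of 15 genes of the integrated stress response, the programme switched on by eIF2 kinases, 12 were tested, 6 positive and 6 negative, with a median of -0.03 and 0 changed. Atf4, its central transcription factor, stood at 0.07 ± 0.20, its target Ddit3 at -0.15 ± 0.30 and Asns, asparagine synthetase, at -0.29 ± 0.34 (SE, adjusted p = 0.93, 0.89 and 0.802). Sesn2, an inhibitor of mTOR complex 1, stood at 1.12 ± 0.39 (SE, adjusted p = 0.268), the smallest p here, and belongs to both of these lists.

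Of 14 termination, recycling and reinitiation factors 12 were tested, 8 positive and 4 negative, with a median of 0.11 and 0 changed. The release factor Etf1 stood at 0.0043 ± 0.54 and Hbs1l, a ribosome rescue factor, at 1.23 ± 0.46 (SE, adjusted p = 0.999 and 0.313). Tpt1, an abundant growth-linked protein, stood at -1.19 ± 0.32 (adjusted p = 0.17), from 5.27 in infarcted and 6.46 in sham hearts, and at -0.33 after quantile normalization. Enzymes that make hypusine on eIF5A and diphthamide on eEF2 had 7 of 8 tested, with a median of -0.10 and 0 changed, and Dnajc24 had the smallest p at 0.28 (adjusted p = 0.75). Of 11 factors of mitochondrial translation 10 were tested, 5 positive and 5 negative, with a median of -0.07 and 0 changed. The smallest p was that of the mitochondrial initiation factor Mtif2, at 0.85 ± 0.21 (SE, adjusted p = 0.123), with groups that did not overlap. Tufm, the mitochondrial counterpart of eEF1A, stood at -0.45 ± 0.30 (adjusted p = 0.596) and at 0.16 after quantile normalization.

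No marker of another cell type passed the test, where 0.549% of all features did. Of 14 tested macrophage and monocyte markers 13 were positive with a median of 0.54, and 0 passed. Their summed linear signal, over 13 genes with a value on every array, was 45.6 to 76.6 times the block median in infarcted hearts and 35.7 to 55.0 in sham hearts. Gpnmb, a glycoprotein of activated macrophages, stood at 1.58 ± 0.31 (SE, adjusted p = 0.06), with groups that did not overlap. Fibroblast markers had 4 of 12 positive and 8 negative, with a median of -0.12. Their sums were 89.9 to 123 in infarcted hearts and 90.6 to 142 in sham hearts. The smallest p of that list was that of Postn, which encodes periostin of the scar matrix, at 1.76 ± 0.54 (SE, adjusted p = 0.209). Endothelial markers had 3 of 9 positive, with sums of 25.4 to 38.7 in infarcted hearts and 32.3 to 42.5 in sham hearts, and the smallest p was that of Eng at -0.68 ± 0.23 (SE, adjusted p = 0.251).

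Neutrophil and mast cell markers had 5 of 6 positive, with sums over 4 genes of 9.002 to 19.2 in infarcted hearts and 4.45 to 9.01 in sham hearts. S100a9, a neutrophil calcium-binding protein, stood at 0.81 ± 0.32 (SE, adjusted p = 0.335), with groups that did not overlap. Lymphocyte markers had 5 of 6 positive, with sums of 3.09 to 5.63 in infarcted hearts and 2.17 to 5.81 in sham hearts, and Ptprc had the smallest p at 0.57 ± 0.30 (SE, adjusted p = 0.49). Smooth muscle and pericyte markers had 3 of 8 positive, with sums of 33.6 to 40.5 in infarcted hearts and 30.7 to 48.6 in sham hearts, and Acta2 had the smallest p at -0.73 ± 0.31 (SE, adjusted p = 0.371). Of 3 tested erythroid markers 2 were positive, while Hba-a1, an alpha globin, stood at -1.78 ± 0.33 (SE, adjusted p = 0.0586), with groups that did not overlap, and at -1.10 after quantile normalization. The part of these cells in the levels of the translation factors was not tested.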

How the data were processed

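The deposited log2 values were taken as the authors gave them. Heart RNA, 30 µg per array, was labelled red and the reference green on every array, per the labels. The software, background correction and spot flags are not given in the sources used here. In each of 48 blocks of 700 spots the deposited values were log2 of whole numbers (42 to 65466, within 0.002 for low signals and within a margin that grows with the signal for high ones) divided by the block median, so they were read as the signal of 1 channel, and not as the ratio assumed when the tests were fixed. Probes were named through the platform annotation: 18179 had 1 symbol, 87 several and 15334 none, and 18164 were found in RefSeq by Entrez identifier. Arrays were centred on the median, probes of a gene averaged, and features with at least 3 values in each group fitted with limma 3.58.1 in R 4.3.3, infarcted minus sham control, with Benjamini-Hochberg adjustment over all 18044 features. Missing values were not filled in. The hearts are separate per the labels, so p-values measure the spread between hearts and arrays together. Arrays of a group correlated at 0.849 to 0.952. Values by array are given for the 12 genes with the smallest p and for tested members of a short list of core factors fixed by name. Outside the family the rule names the smallest p of each list, and others are marked in the text as picked after their values were seen. The members, gene lists and alternatives were chosen with earlier results of these data known. The fit was tested on simulated data with changes larger than any fold change of the family, so that test does not cover changes of the family's size. Deviations of same-numbered arrays correlated at -0.19 to 0.31, and infarcted replicate 2 matched sham replicate 2 best. The main fit used no pairing, and these correlations cannot exclude one. Alternatives covered scaling, missing values, probes, the variance model and the arrays left out.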

Additional observations from a re-analysis of the deposited data

Results flagged for a closer look

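Each tested gene was screened in each group of 4 arrays for an array whose gap to its nearest neighbour took up more of the group's range than Dixon's 95% critical value allows. This held in 12 of 98 gene and group combinations, where the critical value allows about 1 in 20. The share over all features was not computed, so the count says nothing particular to the family. The shares for infarcted arrays were 0.918 for Eef2 (replicate 1 low), 0.869 for Eef1akmt2 (replicate 4 low), 0.892 for Eef1aknmt (replicate 3 low), 0.847 for Eif3j1 (replicate 2 low), 0.853 for Eif3c (replicate 4 low) and 0.951 for Eif3h (replicate 1 high). For sham arrays they were 0.919 for Eef1akmt2 (replicate 1 high), 0.874 for Eif3l (replicate 4 low), 0.857 for Eif2d (replicate 1 high), 0.885 for Eif1b (replicate 1 low), 0.888 for Eif3c (replicate 1 high) and 0.952 for Eef2kmt (replicate 4 low). Eif3l and Eif1b were the only ones of these in which the array lay more than 3 below the rest of its group. No cause was tested.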

How the results depend on the processing

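The count of translation factor genes past the threshold was 0 of 49 in the main fit and 0 in all 23 alternatives. Over all features 1 of 18044 passed with the replicate number as a block and 1120 of 18520 without the 2 sparsest sham arrays. In most alternatives so few features passed that a count of 0 says little about the family. The smallest adjusted p of the family in any alternative was 0.058, for Eif4a1 without the 2 sparsest sham arrays. Some alternatives could not move the fold changes of the family. Array medians were already 0 before centring, and the missing-value settings kept all values of the tested genes. The median of the family was 0.21 after quantile normalization and 0.18 after loess, with 10 and 11 negative genes in place of 28. Leaving out 1 array gave a median of -0.17 to 0.03 and 24 to 33 negative genes. After quantile normalization 18 of the 28 negative genes were positive. Among the genes given by array, and Eif4a2, quantile normalization and loess turned the sign of Eef1b2 (0.12 and 0.11), Eef2 (0.55 and 0.62), Eef1a1 (0.33 and 0.31), Eif3k (0.019 and 0.045), Eef1a2 (0.47 and 0.59), Eif4ebp2 (0.15 and 0.13) and Eif4a2 (0.29 and 0.30). Scale normalization put Eif4ebp2 at 0.064, removal of spot position put Eif4a2 at 0.34, and array weights put Eif4ebp1 at -0.081. Without the 2 sparsest sham arrays Eif2ak4 and Eif4ebp1 stood at -0.13 and -0.29. Leaving out 1 array gave -0.31 to 0.17 for Eif4ebp2, -0.13 to 0.039 for Eef2k, -0.0064 to 0.44 for Eif4e, -0.10 to 0.22 for Eif4ebp1, -0.11 to 1.45 for Eif1b and -0.067 to 1.35 for Eif3l. With the replicate number as a block 1 feature passed in place of 99 and 0 translation factors did (smallest adjusted p = 0.463). Of all features 32 passed after quantile normalization, 63 after loess, 48 after scale normalization, 157 with each probe as a feature, 506 with array weights, 1120 without the 2 sparsest sham arrays and 3 to 615 with 1 array left out. The cause of the sign changes was not tested.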
